A study of Mustela putorius furo with 2 samples.

Results

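The 9 genes described here mark the projection neurons of the deep cortical layers: FEZF2, BCL11B, FOXP2, TLE4, SYT6, SEMA3E, TBR1, ETV1 and CRYM. They were taken by symbol from the gene tables of a single-nucleus RNA-seq study of the ferret (Mustela putorius furo), in which 28156 features were counted and 14296 of them carry a symbol. All 9 were found, each on 1 row with an Ensembl ferret identifier, such as ENSMPUG00000016916 for FEZF2 and ENSMPUG00000003031 for BCL11B. The study holds 2 libraries of nuclei from frozen somatosensory cortex. Both have the genotype label DCX knockout, whereas the series text speaks of a gene that was knocked down. The product of DCX, doublecortin, binds the microtubules of neurons on their way to the cortex. Its loss in people leads to a smooth cortex or to a further band of neurons below the cortex. The first library came from tissue labelled as the upper band of the cortex (called upper band here) and the other from the deeper band. Age, sex, the number of animals and the way the knockout was made are not given in the sources used here, and wild-type tissue was not analysed here. With 1 library per band no difference was replicated, and the effect of band, animal and library preparation cannot be told apart. Every interval below is a 95% interval that covers counting error only.

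Many, but not all, excitatory neurons of the deep layers send their axons out of the cortex. Some of those of layer 5 reach the brainstem and spinal cord, and many of those of layer 6 reach the thalamus. Upper-layer neurons mostly connect cortical areas. FEZF2 is a zinc finger transcription factor that specifies the layer 5 subcerebral neurons and acts upstream of BCL11B, which shapes their axons. TBR1, FOXP2 and the co-repressor TLE4 are transcriptional regulators of layer 6 corticothalamic neurons, and TBR1 is known to repress FEZF2. SYT6 is a synaptotagmin of layer 6 neurons, SEMA3E a secreted axon guidance molecule, ETV1 an ETS-family factor of layer 5 and CRYM a cytosolic protein that binds thyroid hormone.

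The upper-band library kept 6261 nuclei with a median of 7992 unique molecular identifiers (UMIs, the counts of captured transcripts), and the deeper-band library kept 8150 with a median of 4887.5. Excitatory neuron-like nuclei numbered 3184 in the upper and 3452 in the deeper band, with medians of 10750.5 and 10401 UMIs per nucleus. Of the excitatory markers, SLC17A7 (66.4 and 89.4 CPM, the field's usual scaling of a gene's UMIs to the total of its nuclei) and NEUROD2 (9 and 11 UMIs in all) were low in these nuclei. DCX itself was measured at 71.0 and 77.5 CPM in these nuclei, which cannot check the knockout label without wild-type tissue. The 2 libraries had 24 barcodes in common, and without these barcodes the number of genes lower by at least 2-fold, given below, was the same. Markers of other classes were present in excitatory nuclei at low levels. Summed over 12 genes, inhibitory markers stood at 110.4 CPM in the upper and 88.5 in the deeper band, and 15 vascular markers stood at 131.0 and 93.6. Microglial markers stood at 132.9 and 113.6, oligodendrocyte markers at 123.7 and 119.8 and astrocyte markers at 451.8 and 463.8. The inhibitory marker GAD1 alone stood at 1.12 and 0.81 CPM. The part of these transcripts in the results below was not tested.

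Both regulators of subcerebral neurons were lower in the excitatory nuclei of the deeper band. FEZF2 had 1271 UMIs in the upper band, or 34.0 CPM (32.2 to 35.95), and 286 in the deeper band, or 7.49 CPM (6.65 to 8.41). This is a log2 ratio, deeper over upper band, of -2.18 (-2.37 to -1.998), or 4.54-fold lower. A FEZF2 UMI was found in 23.1% of the upper-band nuclei and 5.56% of the deeper-band nuclei. BCL11B had 111.4 CPM (108.0 to 114.8) in the upper and 49.7 (47.5 to 52.0) in the deeper band. Its log2 ratio was -1.16 (-1.24 to -1.09), and the shares of nuclei with a UMI were 44.3% and 30.2%. Of the pair, FEZF2 differed more between bands than BCL11B, and their intervals did not overlap.

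Among the corticothalamic genes, FOXP2, TLE4 and SYT6 were lower by more than 2-fold and TBR1 was not. FOXP2 stood at 35.7 CPM (33.8 to 37.7) in the upper and 8.48 (7.59 to 9.46) in the deeper band. Its log2 ratio was -2.07 (-2.25 to -1.90). A FOXP2 UMI was present in 19.1% and 5.07% of excitatory nuclei. TLE4 stood at 208.6 CPM (204.0 to 213.3) and 99.8 (96.6 to 103.0), with a log2 ratio of -1.06 (-1.12 to -1.01). TLE4 was detected in 51.6% and 42.7% of nuclei, a smaller gap than its level showed. SYT6 stood at 22.5 CPM (21.0 to 24.1) and 7.31 (6.47 to 8.22), with a log2 ratio of -1.62 (-1.82 to -1.43), with a UMI in 13.2% and 5.62% of nuclei. TBR1, by contrast, stood at 40.6 CPM (38.6 to 42.7) in the upper and 36.7 (34.8 to 38.7) in the deeper band. Its log2 ratio of -0.15 (-0.25 to -0.04) was the smallest in size of the 9 genes, and 34.7% and 31.4% of nuclei had a TBR1 UMI.

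SEMA3E and ETV1 were also lower in the deeper band, and CRYM was slightly higher. SEMA3E had 8970 upper-band and 3296 deeper-band UMIs, or 240.1 CPM (235.2 to 245.2) and 86.3 CPM (83.4 to 89.3). The SEMA3E log2 ratio was -1.48 (-1.53 to -1.42), and 43.7% and 18.2% of nuclei had a UMI. ETV1 stood at 130.4 CPM (126.7 to 134.1) and 82.2 (79.4 to 85.1), with a log2 ratio of -0.66 (-0.73 to -0.60), with a UMI in 51.2% and 34.6% of nuclei. CRYM rested on 148 and 197 UMIs, or 3.96 CPM (3.35 to 4.65) and 5.16 (4.46 to 5.93). Its log2 ratio was 0.38 (0.07 to 0.70), and the interval held 0 after thinning to 5000 UMIs per nucleus, at 0.46 (-0.02 to 0.95), as it did when 2 times as many doublets were removed, at 0.26 (-0.08 to 0.61).

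**Figure D1:**
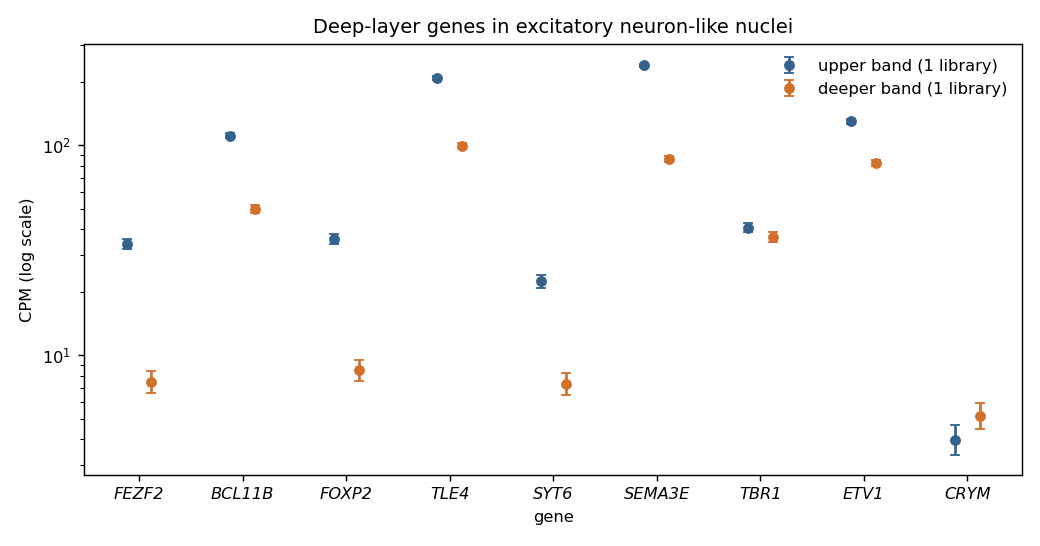
Level of each of the 9 genes in excitatory neuron-like nuclei (CPM, log axis; points are the sum over 1 library per band, bars are exact 95% Poisson intervals). The upper-band point lies above the deeper-band point for 8 genes, by the widest gap for FEZF2, and below it for CRYM.

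Counted together, 6 of the 9 genes were lower in the deeper band by at least 2-fold (FEZF2, BCL11B, FOXP2, TLE4, SYT6 and SEMA3E) and none was higher by that much. Over the 17580 features with at least 20 UMIs in excitatory nuclei, 3.51% were lower by at least 2-fold and 1.32% were higher. The median log2 ratio of the 9 genes was -1.16, beside -0.03 over all features. Ordered from the most negative ratio, FEZF2 ranked 30 among the 17580 features, FOXP2 46, SYT6 153, SEMA3E 212, BCL11B 422 and TLE4 527. ETV1 ranked 1399, TBR1 5952 and CRYM 15696. As another choice, nuclei of any class were taken if they had at least 2 SLC17A7 UMIs and no GAD1 or GAD2 UMI, which gave 541 and 800 nuclei. SLC17A7 was also found in other classes, at 52.2 and 51.2 CPM in oligodendrocyte-like nuclei. The set may therefore hold nuclei that are not excitatory, which were not counted, and it favours nuclei with many UMIs. Among the nuclei so chosen, BCL11B (-0.98) and TLE4 (-0.88) were no longer lower by 2-fold, FEZF2 had a ratio of -1.56, and the interval of TBR1 (-0.24 to 0.23) held 0.

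To separate how many nuclei held a transcript from how much each held, every nucleus was thinned to 5000 UMIs, which left 3062 upper-band and 3308 deeper-band nuclei and left out 122 and 144. FEZF2 then had a UMI in 13.9% (12.7 to 15.2) of upper-band and 3.23% of deeper-band nuclei. The nuclei with FEZF2 held 1.27 UMIs on average in either band, near the lowest possible value of 1. SEMA3E, with more UMIs, differed mainly in the share of nuclei. Its shares were 36.6% and 13.3%, and a positive nucleus held 3.55 and 3.34 UMIs. FOXP2 had shares of 13.1% and 3.20% with 1.58 and 1.48 UMIs per positive nucleus, and ETV1 shares of 37.0% and 24.1% with 1.91 and 1.87. TLE4 differed in both respects. Its shares were 38.5% and 27.2%, and a positive nucleus held 3.05 upper-band and 1.89 deeper-band UMIs. BCL11B also differed in both, with shares of 30.0% and 19.1% and 1.74 and 1.32 UMIs per positive nucleus. SYT6 had shares of 8.33% and 2.99% with 1.43 and 1.24 UMIs, averages that are also close to 1. The thinned TBR1 shares were 18.5% and 17.3%, and those of CRYM were 1.93% and 2.60%.

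At this fixed depth, nuclei with several of the genes were more frequent in the upper band. Of FEZF2, BCL11B, FOXP2, TLE4, SYT6 and SEMA3E, none was detected in 33.3% of the upper-band nuclei and 53.9% of the deeper-band nuclei. Exactly 1 was detected in 29.6% and 31.7%. At least 2 were detected in 37.0% (35.3 to 38.8) of upper-band nuclei, 1134 in number, and in 14.4% (13.3 to 15.7) of deeper-band nuclei, 478 in number. The gap widened with the number of genes. Exactly 3 were found in 9.21% and 3.69% of nuclei, and 4 or more in 11.7% (358 nuclei) and 2.12% (70 nuclei). Each gene counted here was by itself found in fewer deeper-band nuclei, and TBR1, whose shares differed little, was not counted. Fewer nuclei with several of the genes, and a widening gap, can follow from these single-gene shares. The numbers that those shares give were not computed, so the counts are a description and not a separate finding.

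Droplets also hold free RNA, and no correction for it was made. The neuronal transcript SLC17A7 stood at 52.2 and 51.2 CPM in oligodendrocyte-like nuclei, a class that should lack it. Shares of nuclei with a UMI are therefore set beside those in oligodendrocyte-like nuclei, with all nuclei thinned to 1500 UMIs (unthinned medians of 2250.5 and 1922.5 UMIs in oligodendrocyte-like nuclei). This left out 16 and 6 excitatory and 84 and 451 oligodendrocyte-like nuclei. FEZF2 was present in 4.70% of upper-band excitatory nuclei and 1.78% of upper-band oligodendrocyte-like nuclei. In the deeper band, the FEZF2 shares were 1.33% and 0.289%. Unthinned, 2.38% and 0.277% of oligodendrocyte-like nuclei of the upper and deeper band had a FEZF2 UMI. FOXP2 was present in 5.24% of excitatory against 0.950% of oligodendrocyte-like nuclei in the upper band, and in 1.36% against 0.0965% in the deeper band. SYT6 gave 3.06% against 0.119%, and 0.813% against 0.145%. BCL11B gave 13.1% against 0.356% in the upper band and 6.56% against 0 of 2073 nuclei in the deeper band, where 0 nuclei allow a share of up to 0.145% if the limit is set at 3 nuclei, or 0.178% by the Clopper-Pearson interval used for the other shares. SEMA3E gave 22.6% against 4.16%, and 7.54% against 2.22%. TBR1 gave 6.25% against 2.97%, and 4.59% against 2.27%. For CRYM the shares in excitatory and oligodendrocyte-like nuclei could not be told apart by their intervals, at 0.600% (0.361 to 0.935) against 0.475% (0.130 to 1.21) in the upper band and 0.900% (0.612 to 1.27) against 0.434% (0.199 to 0.823) in the deeper band. CRYM was thus near this background at 1500 UMIs.

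The 9 genes divided into those found mainly in excitatory nuclei and those that other classes also held. TBR1 and SEMA3E had their highest levels in excitatory nuclei in both bands, as did FEZF2 and FOXP2 apart from vascular-like nuclei, with 6 and 3 FEZF2 UMIs and 32 and 1 FOXP2 UMIs. Intervals of some small classes overlapped those of excitatory nuclei. This held in both bands for TBR1 in microglia-like and vascular-like nuclei and for SEMA3E in microglia-like nuclei. TBR1 stood at 17.7 and 15.1 CPM in oligodendrocyte-like nuclei and at 17.4 and 7.54 in astrocyte-like nuclei. In inhibitory neuron-like nuclei, FEZF2 stood at 1.87 and 0.815 CPM, FOXP2 at 1.52 and 1.63, and TBR1 at 5.83 in the upper band, on 50 and 27 UMIs. SEMA3E stood at 29.6 (26.1 to 33.5) and 19.6 (16.2 to 23.4) in inhibitory nuclei, where its log2 ratio was -0.60 (-0.92 to -0.28). In upper-band astrocyte-like and oligodendrocyte-like nuclei, SEMA3E stood at 25.7 (17.5 to 36.5) and 29.7 (23.0 to 37.7), so the levels of these classes were not ordered beyond counting error. FEZF2 in glia rested on few UMIs, with 22 and 7 in oligodendrocyte-like nuclei and 15 and 11 in astrocyte-like nuclei of the upper and deeper band. Its oligodendrocyte log2 ratio of -2.87 (-4.34 to -1.59) overlapped that in excitatory nuclei.

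BCL11B was at least as high in inhibitory as in excitatory nuclei. Its inhibitory level was 141.3 CPM (133.4 to 149.5) in the upper and 136.7 (127.6 to 146.3) in the deeper band. That is a log2 ratio of -0.05 (-0.18 to 0.08), whose interval lies apart from that of excitatory nuclei, although the inhibitory ratio was -0.27 without doublet removal. Oligodendrocyte precursor-like nuclei, at 75.1 (49.9 to 108.5) and 61.0 (40.9 to 87.6), came below excitatory nuclei in the upper band and above them in the deeper band, and the intervals of these classes overlapped in both bands. In oligodendrocyte-like nuclei BCL11B had 4 and 2 UMIs. SYT6 was present in inhibitory nuclei too, at 20.3 CPM (17.4 to 23.5) and 11.6 (9.04 to 14.6). Its inhibitory log2 ratio was -0.81 (-1.23 to -0.40), or -1.33 when 2 times as many doublets were removed.

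TLE4 was abundant in glia, and ETV1 in glia other than microglia-like nuclei. In those, ETV1 had 3 UMIs in 47 upper-band nuclei and 0 in 66 deeper-band nuclei. In astrocyte-like, oligodendrocyte-like and precursor-like nuclei the log2 ratios of TLE4 and ETV1 lay between -0.18 and 0.34. TLE4 stood at 292.6 CPM (270.7 to 315.8) in upper-band and 332.4 (316.9 to 348.4) in deeper-band oligodendrocyte-like nuclei, a log2 ratio of 0.18 (0.05 to 0.32). Precursor-like nuclei held 292.2 and 338.7, astrocyte-like nuclei 203.2 and 179.0 and inhibitory nuclei 48.5 and 44.0. ETV1 stood at 187.7 and 237.7 in precursor-like nuclei and at 192.4 and 220.2 in astrocyte-like nuclei, and within a band these classes could not be ordered. Oligodendrocyte-like nuclei came lower, with 93.4 and 83.6. The deeper band had the higher ETV1 level in inhibitory nuclei, 54.1 (48.4 to 60.2) beside 39.4 (35.3 to 43.8), with a log2 ratio of 0.46 (0.23 to 0.68). The direction of ETV1 thus differed between inhibitory and excitatory nuclei. The CRYM value was below 6 CPM in every class, but the small classes do not fix its level. It had 0 UMIs in microglia-like nuclei, where the interval reached 45.1 and 44.2 CPM. In vascular-like nuclei it had 2 and 1 UMIs, with upper limits of 14.8 and 24.5 CPM.

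**Figure D2:**
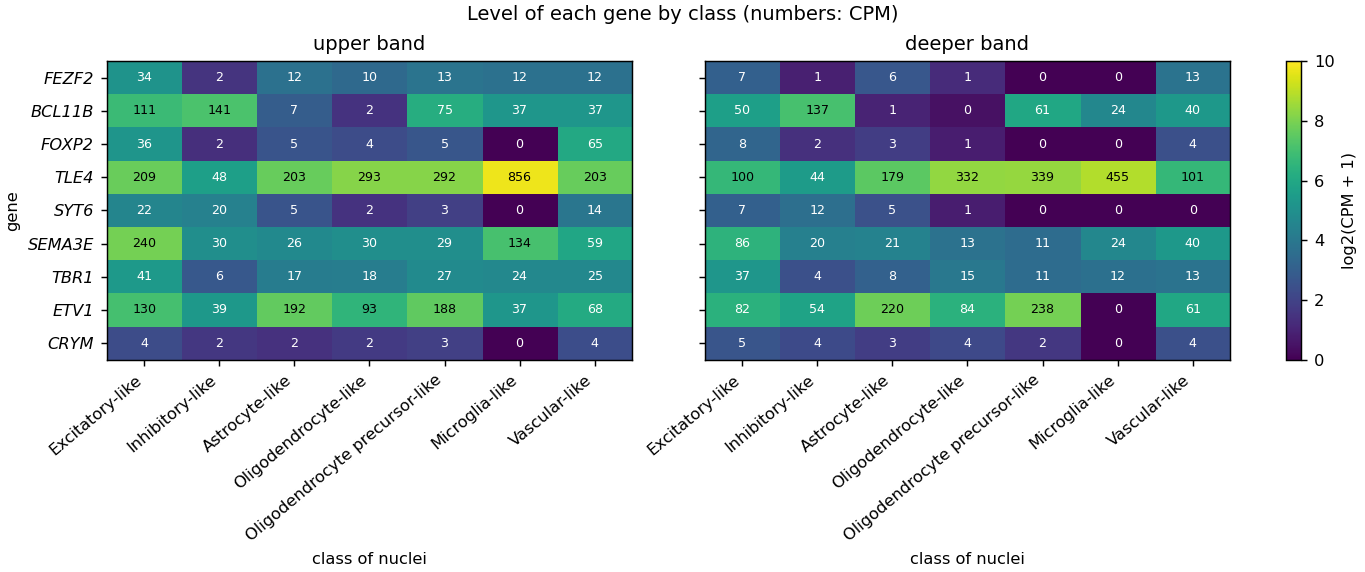
Level of each gene in 7 classes of nuclei, with the number in each cell giving CPM and the colour log2(CPM + 1), for 1 library per band. In both bands BCL11B is high in inhibitory nuclei, TLE4 in glia and ETV1 in glia other than microglia-like nuclei. SEMA3E stands out in excitatory nuclei of both bands. FOXP2 is highest in vascular-like nuclei in the upper band, at 65.5 CPM on 32 UMIs, and in excitatory nuclei in the deeper band.

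Excitatory nuclei were then clustered again with the 9 genes left out, which gave 20 subclusters, here called by their leading genes. The genes were unevenly spread over these, and each subcluster had its own combination. A subcluster led by IQCA1L and CACHD1 held 141 upper-band and 22 deeper-band nuclei and had FEZF2 and BCL11B but little FOXP2 or SYT6. FEZF2 stood there at 145.3 CPM in the upper and 130.5 in the deeper band, and BCL11B at 414.8 and 349.6. FOXP2 stood at 1.06 and 4.92 and SYT6 at 2.47 and 0. Neurons that project outside the cortex and striatum are called extratelencephalic. All 8 of their measured markers passed the naming rule in this subcluster. The rule asks for a set fraction of the highest subcluster level and a UMI in at least 10% of nuclei. Passing it does not show a rise over the other nuclei. The same rule gave the extratelencephalic name to 7 subclusters, so the name is not used here. After thinning to 5000 UMIs, 57.4% of the IQCA1L subcluster's upper-band nuclei and 12 of 20 deeper-band nuclei had a FEZF2 UMI.

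A subcluster led by KLHL14 and HHLA2, with 140 and 20 nuclei, combined FEZF2 and BCL11B with high TLE4 and ETV1. FEZF2 stood at 142.4 (121.9 to 165.4) CPM in its upper-band nuclei, a level that overlapped that of the IQCA1L subcluster, and at 162.1 in its deeper-band nuclei. TLE4 stood at 958.6 and 978.1 and ETV1 at 567.2 and 665.1, the highest ETV1 level of any upper-band subcluster with at least 30 nuclei. SEMA3E was low there, at 12.5 and 5.59. HTR2C, a serotonin receptor gene listed as a near-projecting marker, was among its 10 leading genes. By the naming rule the subcluster got no name, since 4 extratelencephalic and 4 near-projecting markers passed.

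FOXP2 and SYT6 were highest in a subcluster led by RXFP1 and BMPR1B, with 412 and 114 nuclei. FOXP2 stood there at 186.6 (173.6 to 200.4) CPM in the upper and 160.5 (137.8 to 185.9) in the deeper band. SYT6 stood at 119.3 and 99.2, TLE4 at 715.0 and 672.7, SEMA3E at 708.1 and 587.1 and TBR1 at 77.6 and 90.2, the highest TBR1 level in either band. A subcluster led by NXPH2 and PROM1, with 160 and 17 nuclei, came next for FOXP2, at 130.7 (114.4 to 148.6) in its upper-band nuclei, clear of the interval above. SYT6 at 111.1 (96.1 to 127.7) overlapped. This subcluster had the highest upper-band TLE4 level, at 1027 (981 to 1075), which overlapped that of the KLHL14 subcluster (904 to 1016), and 1266 in its 17 deeper-band nuclei.

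Other subclusters held further combinations. In a subcluster led by GALNT14, with 347 and 98 nuclei, SEMA3E stood at 696.3 and 661.0 CPM, BCL11B at 84.8 and 89.9 and ETV1 at 118.7 and 112.2, while FOXP2, SYT6 and TLE4 were low. A small subcluster led by GFRA1 and TRPC7, of like size in the 2 bands with 73 and 85 nuclei, had the highest SEMA3E level, at 1012 and 1113, together with TLE4 at 728.7 and 774.3. This subcluster also held BCL11B at 95.4 and 109.7, ETV1 at 77.5 and 125.6, FOXP2 at 65.6 and 67.1 and FEZF2 at 44.7 and 23.2. The largest upper-band subcluster, led by SH3BP4 and LGR5, held 471 and 147 nuclei, with ETV1 at 235.7 and 307.0, FEZF2 at 36.8 and 37.3 and BCL11B at only 9.87 and 14.6. FOXP2 stood there at 33.5 and 18.1 and SEMA3E at 64.4 and 38.4. TBR1 was the most evenly spread of the 9 by the fold between its highest and lowest level. Over subclusters with at least 30 nuclei it ranged from 13.4 to 77.6 in the upper band and from 22.2 to 90.2 in the deeper band, whereas FEZF2 ranged from 0 to 145.3 and from 0 to 60.4. The lowest TBR1 levels were near those of oligodendrocyte-like nuclei, 17.7 and 15.1 CPM. The part of free RNA in this even spread was not tested.

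These subclusters took very different shares of the 2 bands. The RXFP1 subcluster made up 12.9% of upper-band and 3.30% of deeper-band excitatory nuclei, the NXPH2 subcluster 5.03% and 0.492%, the IQCA1L subcluster 4.43% and 0.637% and the KLHL14 subcluster 4.397% and 0.579%. The GALNT14 subcluster made up 10.9% and 2.84%. Among subclusters with at least 30 upper-band nuclei, 6 had at least 20 FEZF2 CPM in the upper band. Together these 6 held 1397 nuclei (43.9%) there and 405 nuclei (11.7%) in the deeper band. A smaller subcluster led by CDH20 and LNP1, with 27 and 18 nuclei, also passed 20 FEZF2 CPM. It had 64.3 FEZF2 CPM in the upper band, on 22 UMIs, and made up 0.848% and 0.521% of excitatory nuclei. The 4 subclusters with the largest excess of deeper-band nuclei had at most 5.61 FEZF2 CPM in the upper band. The one led by ZNF536 and VWA2, with 78 and 518 nuclei, had 3.29 and 0.188 FEZF2 CPM, on 3 and 1 UMIs. The one led by BBOX1 and PTGIS, with 98 and 409 nuclei, had 5.61 FEZF2 CPM in the upper band and 0 UMIs in the deeper band, with ETV1 at 172.1 and 139.5.

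**Figure D3:**
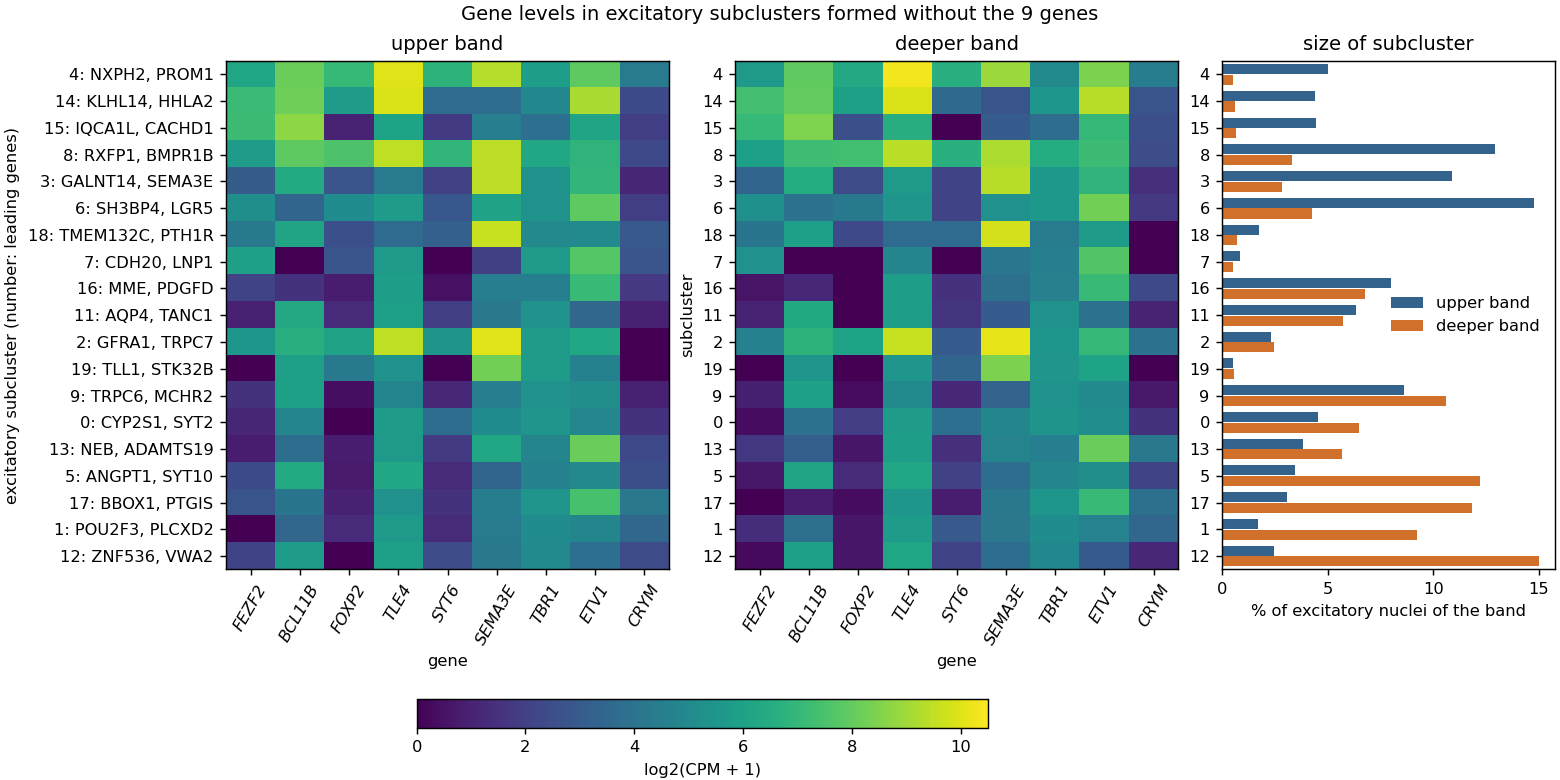
Level of each gene, as log2(CPM + 1), in the 19 excitatory subclusters with at least 15 nuclei in each band, and the share of each band's excitatory nuclei in each subcluster (%). Rows are ordered by the ratio of shares, and the subclusters with high FEZF2, FOXP2, TLE4 or SEMA3E lie mostly at the top, where the upper band has the longer bar.

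Within subclusters, most ratios between bands had intervals that held 0. In 19 subclusters with at least 15 nuclei in each band there were 171 combinations of gene and subcluster, of which 4 had no UMI in either band and gave no ratio. Of the other 167, 13 had no UMI in 1 of the bands, so that their interval was open on one side. The interval held 0 for 140 of the 167, lay below 0 for 17 and above 0 for 10. An interval that holds 0 does not show equal levels, since many of these ratios rest on few UMIs. No TBR1 ratio had an interval clear of 0. SEMA3E had 6 intervals below 0, FEZF2 5 and BCL11B 3, and none of these genes had one above 0. Of the FEZF2 intervals below 0, that of the GFRA1 subcluster rested on 30 and 19 UMIs. The others rested on at most 9 upper-band and 3 deeper-band UMIs each. In the IQCA1L, KLHL14, RXFP1, NXPH2 and SH3BP4 subclusters the FEZF2 interval held 0. ETV1 had 5 above 0 and 1 below. In the RXFP1 subcluster BCL11B stood at 235.0 CPM in the upper and 151.5 in the deeper band, which is a log2 ratio of -0.63 (-0.88 to -0.40). In the same nuclei SEMA3E had a ratio of -0.27 (-0.40 to -0.15) and ETV1 one of 0.36 (0.09 to 0.62). In the GALNT14 subcluster TLE4 was higher in the deeper band, at 18.8 and 50.5, a log2 ratio of 1.43 (0.91 to 1.93). SYT6 in the GFRA1 subcluster was lower, with 28 and 6 UMIs and a ratio of -2.51 (-4.07 to -1.21).

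The weight of subcluster sizes was put in numbers by giving the deeper band the upper band's make-up, that is, by averaging its subcluster levels with the upper band's UMI totals per subcluster as weights. The FEZF2 level of the deeper band was then 32.1 CPM instead of 7.49, and its log2 ratio -0.09 instead of -2.18. These weighted values have no interval and rest in part on few nuclei. The IQCA1L, KLHL14 and NXPH2 subclusters held 22, 20 and 17 deeper-band nuclei, with 53, 29 and 10 FEZF2 UMIs. FOXP2 moved from -2.07 to -0.33, SYT6 from -1.62 to -0.27, SEMA3E from -1.48 to -0.19 and BCL11B from -1.16 to -0.24. TLE4 moved from -1.06 to 0.09, or to -0.012 with subclusters formed at a resolution of 0.5 in place of 1. ETV1 moved past 0, from -0.66 to 0.27. TBR1 went from -0.15 to 0.06 and CRYM from 0.38 to 0.24. With the deeper band's make-up given to the upper band, the FEZF2 ratio was -0.36 and the TLE4 ratio 0.08. The subclusters were formed from genes that vary with these 9, so the exercise describes where the UMIs lie and is no test. FOXP2 was the most concentrated, with 88.5% of its upper-band UMIs in 3 subclusters, followed by SYT6 with 85.6%, SEMA3E with 77.1% and TLE4 with 75.7%. For TBR1 the figure was 47.2%.

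**Figure D4:**
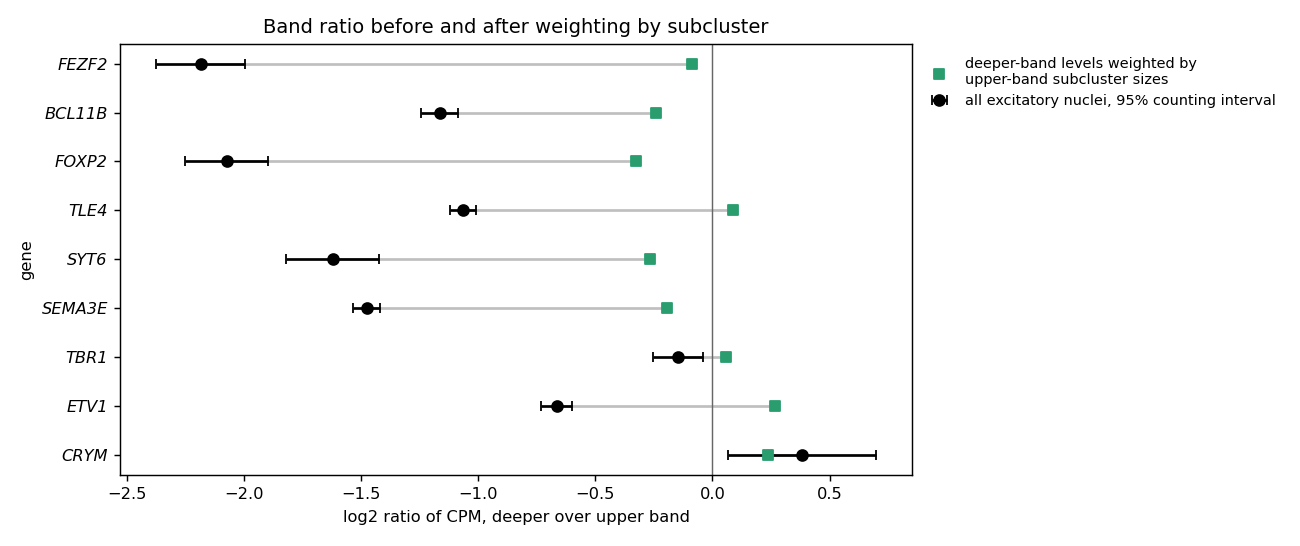
Log2 ratio of CPM, deeper over upper band, for each gene over all excitatory nuclei (circles, with exact 95% counting intervals) and after weighting the deeper band's subcluster levels by the upper band's subcluster sizes in UMIs (squares, no interval). The squares of FEZF2, FOXP2, SYT6, SEMA3E, BCL11B and TLE4 lie between -0.33 and 0.09, much nearer 0 than their circles.

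Co-detection within single excitatory nuclei was examined for the 36 pairs after thinning to 5000 UMIs. For each pair, the nuclei with both genes were set against the number that the product of the 2 shares gives. In the upper band the highest ratio was that of FOXP2 and SYT6, with 102 nuclei and a ratio of 3.05. SYT6 was present in 25.4% (21.2 to 29.9) of the nuclei with FOXP2 and in 5.75% of those without. In the deeper band 18 nuclei had both, and SYT6 was present in 17.0% (10.4 to 25.5) of 106 nuclei with FOXP2 and 2.53% of those without. TLE4 accompanied both genes. Its ratio with SYT6 was 2.17 in the upper and 2.12 in the deeper band, and its ratio with FOXP2 was 2.16 and 2.92. A TLE4 UMI was present in 83.3% of upper-band nuclei with FOXP2 and 31.7% of those without, and in 79.2% and 25.5% in the deeper band. SYT6 with SEMA3E gave 2.06 and 3.57, and BCL11B with FOXP2 gave 1.97 and 2.17.

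FEZF2 and BCL11B, the pair linked in the specification of subcerebral neurons, gave 1.84 in the upper and 1.90 in the deeper band. BCL11B was present in 55.2% (50.3 to 59.95) of upper-band nuclei with FEZF2 and 25.9% of those without, and in 36.4% (27.4 to 46.3) and 18.6% in the deeper band. FEZF2 with FOXP2 gave 1.93 in the upper band (108 nuclei), near the 1.84 of FEZF2 with BCL11B. Over all alternatives in processing, the upper-band ratio ran from 1.58 to 2.01 with FOXP2 and from 1.45 to 2.51 with BCL11B. In the deeper band FEZF2 with FOXP2 gave 8.17 (28 nuclei). The product of shares there gives 3.43 nuclei, under the minimum set for showing a pair. The highest possible ratio is also larger for a rarer partner, and FOXP2 was rarer than BCL11B, so these pairs cannot be ranked. FOXP2 was present in 26.2% (18.1 to 35.6) of deeper-band nuclei with FEZF2 and 2.44% of those without. At the other end, TBR1 and FEZF2 were found together about as often as the product of shares gives or less, at 0.87 in the upper band (68 nuclei) and 1.03 in the deeper band (19 nuclei). TBR1 with CRYM gave 0.92 and 0.94, and TBR1 with ETV1 gave 0.95 and 1.09. These ratios describe nuclei of 1 library each. They include the grouping of nuclei into subclusters.

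**Figure D5:**
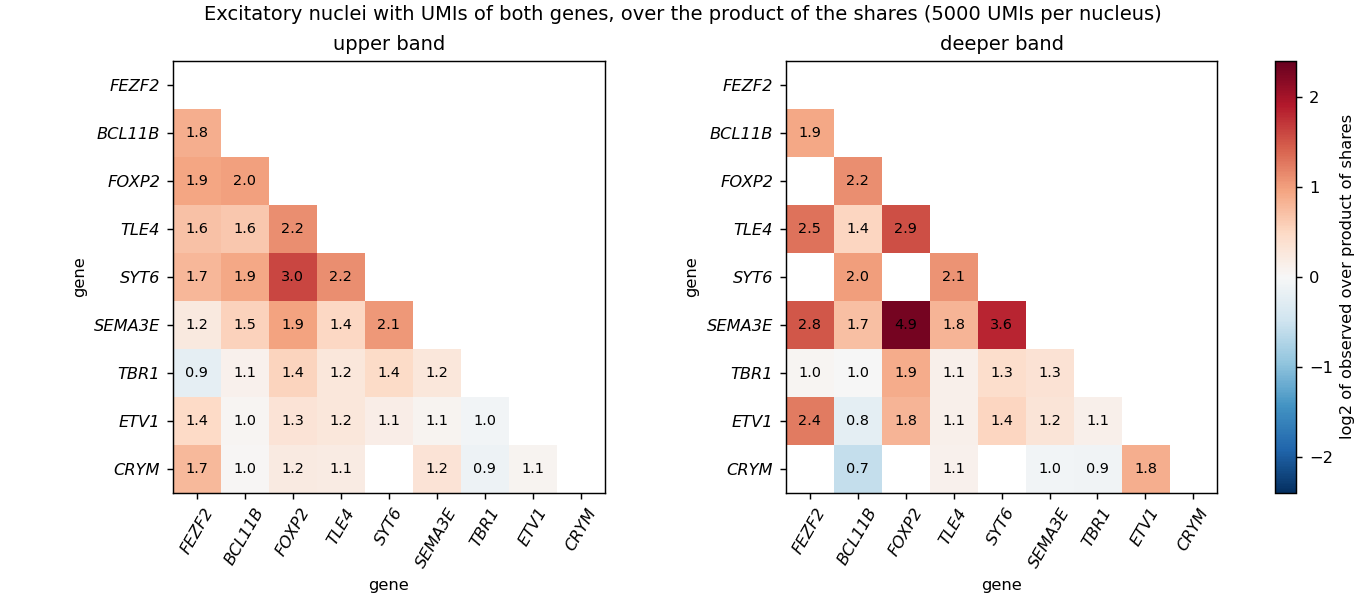
Nuclei with UMIs of both genes over the number from the product of the shares, for each pair in each band, at 5000 UMIs per nucleus (colour on a log2 scale, the ratio printed in each cell, blank where the product gives under 5 nuclei). The pairs among FOXP2, SYT6, TLE4 and SEMA3E that are shown have ratios of 1.4 and above in both bands, while the TBR1 ratios, other than with FOXP2, lie closer to 1.

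Nuclei with FEZF2, FOXP2, BCL11B, TLE4, SYT6 or SEMA3E carried the upper-layer gene CUX2, a homeobox transcription factor, less often than nuclei without the gene in question, in both bands. At 5000 UMIs, CUX2 was present in 9.86% of upper-band nuclei with FEZF2 and 50.2% of those without, and in 23.4% and 82.9% in the deeper band. For FOXP2 the shares were 5.97% and 50.4% in the upper band and 15.1% and 83.1% in the deeper band. The contrast was smaller for BCL11B, with 22.5% and 54.0% in the upper band and 68.4% and 83.9% in the deeper band, and for TLE4, with 26.0% and 56.2%, then 69.2% and 85.3%. Most deeper-band nuclei with BCL11B or TLE4 thus also had CUX2. SEMA3E gave 14.3% and 62.0% in the upper band and 37.3% and 87.7% in the deeper band. SYT6 gave 10.2% and 47.7% in the upper band and 48.5% and 82.0% in the deeper band. For TBR1 the CUX2 shares were 36.6% and 46.3%, then 74.1% and 82.4%, and for CRYM 50.8% and 44.4%, then 77.9% and 81.0%. The layer 4 gene RORB, a nuclear receptor, was also less frequent with each of those 6 genes than without it, in both bands. With BCL11B it was present in 8.39% against 44.0% of upper-band nuclei and 13.9% against 51.4% of deeper-band nuclei. In the upper band the RORB shares were 19.95% against 35.5% for FEZF2, 12.9% against 36.4% for FOXP2, 21.7% against 40.6% for TLE4, 9.41% against 35.5% for SYT6 and 14.5% against 44.2% for SEMA3E. RORB was more frequent with ETV1, which CUX2 was not, at 41.1% against 28.8% in the upper band and 62.0% against 38.6% in the deeper band. With CRYM it was present in 77.9% (67.7 to 86.1) against 43.4% of deeper-band nuclei, whereas in the upper band the intervals overlapped, at 44.1% (31.2 to 57.6) against 33.1% (31.5 to 34.8).

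Across 30 profiles of subclusters by band, with at least 30 nuclei each, the members most alike in log2(CPM + 1) were FOXP2 and SYT6 (Pearson r = 0.82), FEZF2 and FOXP2 (r = 0.80) and FOXP2 and TLE4 (r = 0.79). BCL11B and ETV1 had r = -0.13. The profiles share 2 libraries and are not independent, so r is a description. Of 9146 other genes with at least 200 UMIs, those most like FEZF2 were TOX (r = 0.85), GRIP1 (0.85) and PDE5A (0.85). All 3 were also lower in the deeper band, TOX from 340.6 to 100.7 CPM. For FOXP2 the most similar profiles were those of MDGA2 (0.92), STARD13 (0.92) and WASF3 (0.89), and for SYT6 those of RPTOR (0.86), PTK7 (0.84) and MDGA2 (0.83). SEMA3E was followed by ADAMTSL1 (0.93), ZFPM2 (0.90) and CLMP (0.85), and TLE4 by ASAP2 (0.90), GLRA2 (0.90) and NCAM1 (0.89). BCL11B was followed by NSMF (0.85), DSCAML1 (0.84) and LRCH2 (0.82), with NSMF at 59.9 and 57.6 CPM in the 2 bands. ETV1 was followed by PPM1L (0.88), CSRP2 (0.86) and GRM3 (0.85), and TBR1 by TMEM178A (0.89), RASA2 (0.81) and PDS5B (0.76). CRYM had no close profile, with CHMP2B (0.64), RBM11 (0.62) and KHDRBS2 (0.61) at the head.

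Genes related to the members had ratios in both directions. Of 23 other regulators of projection neuron identity, 18 were measured in excitatory nuclei. NR2F2 (log2 ratio -2.12, on 17 and 4 UMIs) and ZFPM2 (-1.20) were lower by at least 2-fold and CUX2 (1.00) was higher. The list's median was 0.13. ZFPM2, a cofactor of GATA proteins, stood at 842.9 and 367.6 CPM. SOX5, an SRY-box factor of deep-layer neurons, had a ratio of -0.20, MEF2C one of 0.14 and LDB2 0.14. Among 12 measured paralogs of the 9 genes, none was lower by 2-fold, SYT10 was higher (1.31) and the median was -0.03. ETV5 (-0.05), SEMA3A (0.11), SEMA3D (-0.39) and TLE1 (0.56) had most UMIs of the others. For the receptors of SEMA3E, PLXND1 stood at 66.9 and 97.5 CPM (log2 ratio 0.54, 0.47 to 0.62) and NRP1 at 286.0 and 325.4 (0.19), and KDR had 38 and 11 UMIs (-1.82). The ligand and its plexin receptor thus had opposite directions. None of 9 measured genes of the thyroid hormone pathway beside CRYM passed 2-fold, with a median of 0.01, THRB at -0.02, THRA at 0.17 and KLF9 at 0.20.

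For the marker lists of the neuron types, the counts past 2-fold are to be read against the 3.51% of all features that were lower and the 1.32% that were higher, and the medians against -0.03. The lists hold 2 to 8 measured genes each, so that 1 gene weighs much in a count. Of 4 measured corticothalamic markers ZFPM2 was lower by 2-fold, with PCSK5 at 0.10, NTNG2 at -0.13 and SULF1 at -0.68 and a median of -0.40. Of 8 measured extratelencephalic markers NPR3 was (-1.63, on 175 and 58 UMIs), with LDB2 at 0.14, CRIM1 at -0.40, COL24A1 at -0.70 and VAT1L at -0.13 and a median of -0.40. NEFH (0.17) also lay above 0, so that 6 of the 8 lay below. Of 6 measured near-projecting markers HTR2C (-1.36) and SLC17A8 (-1.56, on 46 and 16 UMIs) were lower, with VWC2L at -0.95, SLA2 at -0.55, TSHZ2 at 0.34 and TRHR at 0.32 and a median of -0.75. Of 4 measured layer 6b markers CCN2 was (-1.03, on 76 and 38 UMIs), with MOXD1 at -0.91, NXPH4 at -0.31 and NR4A2 at 0.10 and a median of -0.61. In the other direction, CUX2 (1.00) and UNC5D (1.06) of 8 measured upper-layer markers were higher by 2-fold, with RASGRF2 at 0.84, LAMP5 at 0.74, GLIS3 at 0.40 and LHX2 at 0.24 and a median of 0.66. RORB (0.58) and SCNN1A (-0.16) were the 2 measured layer 4 markers.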

How the data were processed

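Nuclei of 2 libraries, 1 per band, were analysed from the deposited matrices of UMI counts, whole numbers that the authors deposited without normalization, per the file headers. The submitters' processing notes name Cell Ranger 6.2.1 and Cell Ranger 2.1.1, with no role given, and the file header a software version of 3.1.0. Genome build, annotation and treatment of intronic reads are not given in the sources used here. The matrices held 7151 and 9694 barcodes with 66253015 and 78352064 UMIs, for about 8000 targeted nuclei per library. Nuclei with at least 500 genes were kept. Doublets called per library by Scrublet (scanpy 1.11.5, expected rate 0.8% per 1000 nuclei) were removed, 830 (11.7%) and 1458 (15.2%). Both libraries were clustered together (2000 variable genes, 30 components, 15 neighbours, Leiden at resolution 1) into 27 clusters, named by marker lists with at least 3 raised markers. A marker counted as raised at a set fraction of the highest cluster's level, with a UMI in at least 10% of nuclei. Unnamed clusters held 4.87% and 2.25% of nuclei. UMIs were summed per class and band and given as CPM of the class total. Sums carry exact Poisson intervals, shares Clopper-Pearson intervals and log2 ratios exact conditional binomial intervals. The interval script was checked on simulated counts. With 1 library per band no test was run. The members and lists were chosen with earlier results of these data known. Named were all 9 members, for each the 3 most correlated genes, list genes past 2-fold with up to 4 others of most UMIs per list, and the 5 highest and 3 lowest upper-band pairs whose product of shares gives at least 5 nuclei. FEZF2 with BCL11B, chosen for its known link, was added after values had been seen. So were FEZF2 with FOXP2, set beside it, and the single subclusters described. Alternatives covered scaling, depth, doublets, filters, the choice of excitatory nuclei and the clustering. Values of some listed genes are not reported here.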

Additional observations from a re-analysis of the deposited data

How the results depend on the processing

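No paired analysis was possible because each band had 1 library, and no replicate could be left out. Over the alternatives to the main results, 27 values stayed within an interval set around the main value (counts within 1.5 times) and 5 moved, none to the other direction. For the median log2 ratio this was the counting interval of BCL11B, the middle gene. For the median at the upper band's make-up it had the width of the FEZF2 interval over all excitatory nuclei. The median log2 ratio of the 9 genes, -1.16, was -1.28 when 2 times as many doublets were removed. It was -0.98 with nuclei chosen from all classes by SLC17A7, GAD1 and GAD2, where 4 genes in place of 6 were lower by 2-fold. Leaving out each gene in turn gave medians of -1.32 without TLE4, TBR1, ETV1 or CRYM, -1.27 without BCL11B and -1.11 without any other. The log2 ratio of the share of nuclei with at least 2 of the 6 genes, -1.36, was -1.52 thinned to 3000 UMIs, -0.97 without thinning (52.3% and 26.8%) and -1.58 with at least 2 UMIs and no thinning. Over all alternatives the excitatory ratio ran from -2.49 to -1.56 for FEZF2, from -2.21 to -2.001 for FOXP2, from -1.55 to -1.43 for SEMA3E and from -0.17 to -0.01 for TBR1. The upper-band pair of FEZF2 and SEMA3E, 1.18, was 0.94 with at least 2 UMIs and no thinning. TLE4 at the upper band's make-up, 0.09, was -0.012 at a resolution of 0.5. Single genes by class gave 260 values that stayed and 18 that moved, pairs 539 and 110. The cause was not tested. Leaving out 2 subclusters led by glial genes, an alternative chosen after seeing the data, left 6 genes lower by 2-fold and a median of -1.24. Clustering each library on its own gives no shared subclusters, so the make-up has no value there.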

Other observations

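Some members were also found in small classes. In vascular-like nuclei FOXP2, which is known from several tissues outside the brain, had 32 upper-band UMIs and 1 deeper-band UMI, or 65.5 and 4.39 CPM, a log2 ratio of -3.90 (-9.25 to -1.32). A FOXP2 UMI was present in 9.51% of 263 upper-band and 0.641% of 156 deeper-band vascular-like nuclei. In microglia-like nuclei TLE4, a co-repressor of the Groucho family, stood at 855.6 (667.0 to 1081) CPM in 47 upper-band nuclei and 455.1 (322.1 to 624.7) in 66 deeper-band nuclei, a log2 ratio of -0.91 (-1.52 to -0.32). Among excitatory subclusters of the deeper band with at least 30 nuclei, CRYM was highest in the one led by NEB and ADAMTS19, at 17.6 CPM (11.98 to 25.0), against 4.05 in its upper-band nuclei, on 31 and 5 UMIs. BCL11B in the subcluster led by BBOX1 and PTGIS had 17 UMIs in 98 upper-band nuclei and 3 in 409 deeper-band nuclei, a log2 ratio of -4.36 (-6.78 to -2.57).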
